A study of Drosophila melanogaster with 55 samples.

Results

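Trimethylation of lysine 9 on histone H3 (H3K9me3) was mapped in w1118 embryos of Drosophila melanogaster at stages 4, 5 and 6, with 1 chromatin immunoprecipitation library per stage. These 3 libraries are all samples of the series titled for H3K9me3 in w1118 embryos, out of 55 samples. Their peak lists held 6743 peaks at stage 4, 5716 at stage 5 and 7968 at stage 6, which is 20427 of the 117981 peaks in the 29 lists of the series. w1118 is a white-eyed laboratory strain. The labels name no transgene, knockdown or treatment for these embryos besides the antibody, and give neither their sex nor the number pooled. H3K9me2 and H3K14ac lists came from w1118 embryos of the same stages, also with 1 library each. H3K9me3 lists from 2 other genotypes served for comparison, with 2 libraries each: GFP-SetDB1 embryos carrying nos-Gal4 and w RNAi, labelled stage 5, and GFP-SetDB1 WT/CyO embryos, whose ChIP labels give no stage. The nos-Gal4 driver is active in the germline of the mother, and CyO is a balancer of the second chromosome.

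H3K9me3 is the mark of constitutive heterochromatin, the compacted and repeat-rich chromatin around centromeres, on the Y and on much of chromosome 4. Enzymes such as SetDB1 (Eggless in flies) place it, and HP1 proteins bind it. In the fly embryo, nuclei first divide in a shared cytoplasm with little of the mark. Stage 4 is the syncytial blastoderm, stage 5 is the blastoderm that becomes cellular while the zygotic genome is switched on, and stage 6 is the start of gastrulation.

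The lists differed in the number of peaks and in the length they covered. From stage 4 to stage 5 the number of peaks fell by 1027, and stage 6 held 2252 more than stage 5. The peaks covered 5.73 Mb at stage 4, 4.92 Mb at stage 5 and 8.52 Mb at stage 6. Stage 6 was thus the highest in both measures and stage 5 the lowest. Stages were taken from the sample titles. Peak names in the H3K9me3 and H3K9me2 lists carry the tags C11, C14 and C15 at stages 4, 5 and 6, whose meaning the sources used here do not give. With 1 library per stage no difference between stages was tested, and all values below describe these libraries.

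Peaks were short islands in all 3 lists, and longest at stage 6. The median width was 476 bp at stage 4 (95% interval of the median over peaks 466 to 487 bp), 485 bp at stage 5 (473 to 499 bp) and 592 bp at stage 6 (575 to 604 bp). The widest peak measured 25022, 28135 and 28583 bp at stages 4, 5 and 6. Fold enrichment, which is the authors' own value per peak over the background their caller estimated, went the other way. Its median was 4.36 at stage 4, 3.99 at stage 5 and 3.62 at stage 6, and its maximum 23.1, 22.7 and 14.9. Among the 5716 peaks of highest −log10 q in each list, the median fold was 4.68, 3.99 and 4.15 and the median width 535, 485 and 796 bp. Stage 5 was lowest in both. That number is the whole stage 5 list, so that only stages 4 and 6 lost peaks, those of lowest −log10 q. Their medians could thus rise while those of stage 5 stayed the same, and the low place of stage 5 can follow from that alone. Intervals over peaks or regions, here and below, cover counting error only, not the spread between embryos.

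Depth rose with stage over the 3 lists. The background that the caller used can be computed back from each peak's pileup (read coverage at the summit) and fold enrichment. Its lowest value, which grows with the number of reads and the fragment length, was 2.95 at stage 4, 3.76 at stage 5 and 6.00 at stage 6. At that lowest background, a peak needed a fold enrichment of at least 2.78, 2.73 and 2.29 to be listed. The stage 6 library was therefore 2.03 times as deep as that of stage 4 by this measure, while it held 1.18 times as many peaks and 1.49 times the covered length. Stage 5 was 1.28 times as deep as stage 4 and held 0.848 times as many peaks. When pileup and background of every peak were scaled to the background of stage 4, 6743, 5606 and 6758 peaks kept the significance their list required. On that scale stages 4 and 6 held nearly the same number, and stage 5 held the fewest. The scaling could only drop listed peaks of stages 5 and 6, so that stage 5 could not rise above stage 4. Among peaks with a fold enrichment of at least 3, stage 4 held more than stage 6, with 6288, 4985 and 6087 peaks. Width and covered length are read from the same coverage, and for them stage and depth cannot be told apart.

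**Figure D1:**
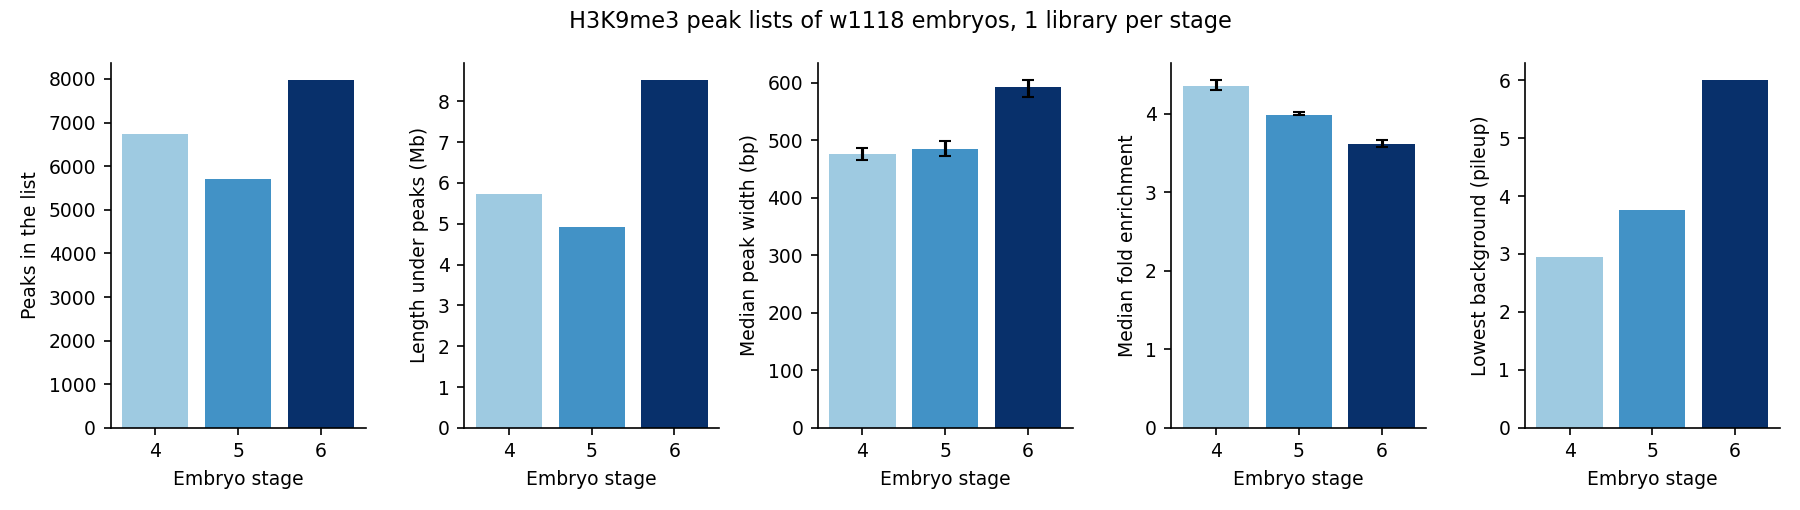
H3K9me3 peak lists of w1118 embryos at stages 4, 5 and 6. Bars give the number of peaks, the length under peaks in Mb, the median peak width in bp, the median fold enrichment and the lowest background in pileup units; error bars on both medians are 95% intervals over peaks, and each stage is 1 library. Number and length are lowest at stage 5 (5716 peaks, 4.92 Mb), while the background rises with stage (2.95, 3.76 and 6.00).

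The median background at peaks stood at 1.19, 1.33 and 1.23 times the lowest one at stages 4, 5 and 6. It was highest at stage 5, as was the same ratio of the H3K9me2 lists, with 1.15, 1.27 and 1.18 at stages 4, 5 and 6. H3K9me2 peaks were also fewest at stage 5, with 8542, 8038 and 9110 peaks. The labels name 1 input shared by H3K9me2 and H3K9me3 at each stage, and the part of that input in the low number at stage 5 was not tested. The mitochondrial genome has no histones, yet peaks were listed on it. It held 8, 6 and 12 peaks at stages 4, 5 and 6, with folds of at most 2.57, 2.31 and 1.77. Of the other peaks, 98.1%, 98.5% and 99.8% lay above that stage's mitochondrial maximum. At the lowest background, however, no peak was listed with a fold below 2.78, 2.73 and 2.29. For such peaks the threshold of the list alone sets them above the mitochondrial maximum.

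H3K9me3 lay mostly in pericentromeric heterochromatin at each stage. The heterochromatic share of peaks on assembled chromosomes hardly moved while the lists changed in size. Pericentromeric heterochromatin was taken with round borders on the dm6 build: 2L from 22 Mb, 2R up to 6 Mb, 3L from 23 Mb, 3R up to 4 Mb and X from 22 Mb. Together with chromosome 4 and the Y, it held 81.2% of the peaks on assembled chromosomes at stage 4 (Wilson 95% interval 80.1 to 82.2%), 81.2% at stage 5 (80.1 to 82.4%) and 81.4% at stage 6 (80.4 to 82.4%). The 3 intervals overlap. The same share was 83.4%, 81.4% and 83.2% for H3K9me2.

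The part of each compartment that lay under peaks differed more. Peaks covered 18.3% of the pericentromeric span of 18.2 Mb at stage 4, 15.0% at stage 5 and 28.8% at stage 6. On the Y they covered 8.93%, 7.14% and 12.6%. On chromosome 4 they covered 2.88%, 2.27% and 3.91%. The arms outside these borders had 0.593%, 0.511% and 0.862% of their 114.4 Mb under peaks. Each of these compartments was lowest at stage 5 and highest at stage 6, and their order was the same at each stage. Covered length at stage 6 over stage 4 was 1.57 in pericentromeric regions, 1.45 in arms, 1.41 on the Y, 1.36 on chromosome 4 and 1.32 on unplaced scaffolds.

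Unplaced scaffolds, short pieces of assembly that are rich in repeats, carried 1516 peaks at stage 4, 1429 at stage 5 and 1845 at stage 6. Their median fold enrichment was 4.75, 4.29 and 3.84, above that of arm peaks at 4.05, 3.78 and 3.43. The highest folds of each list, 23.1, 22.7 and 14.9, were all on scaffolds. Peaks lay on 1131 scaffolds at any stage and on 835 of them at every stage. The treatment of reads with more than 1 possible place is not given in the sources used here, and values in repeats depend on it.

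Coverage was higher inside the border than outside it on each arm by the median of the bins, and it was uneven on both sides. In bins of 0.5 Mb, the median bin of 3R heterochromatin was 20.2%, 15.3% and 34.4% covered at stages 4, 5 and 6, against 0.577%, 0.436% and 0.870% as the median of the 3R bins outside the border, of which the one next to the border held 5.45%, 5.11% and 7.88%. The bin at the centromere end of 3R was the highest of all, with 51.4%, 50.8% and 61.7%. On X, the last bin reached 41.04%, 39.2% and 49.1%, while the bin just before it held 0.788%, 0.742% and 1.04%. On X the last bin before the border held 10.9%, 10.4% and 19.3%, and the next one inside it 16.6%, 16.4% and 21.6%. On 2R coverage dropped at the border used, with 9.79%, 8.03% and 15.5% in the last bin before it and 3.52%, 2.74% and 5.53% in the next one inside. The bin of highest coverage on each arm was the same at all 3 stages.

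**Figure D2:**
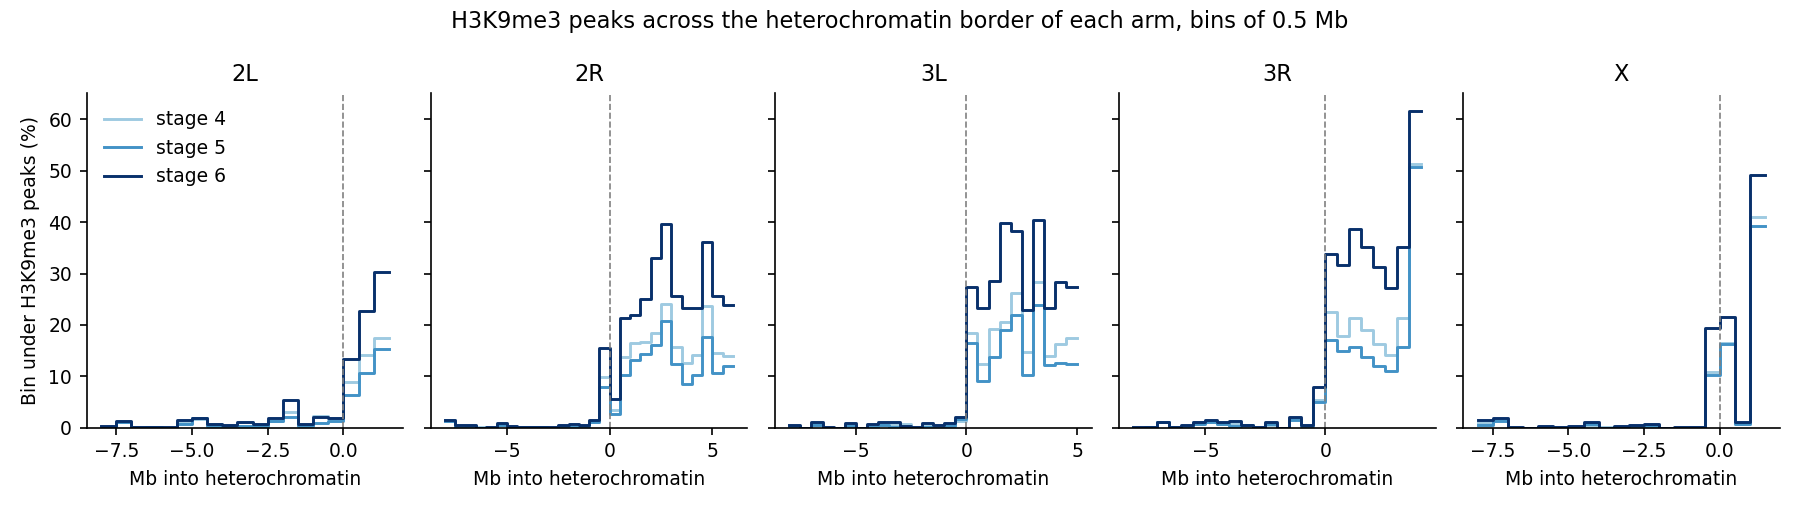
Share of each 0.5 Mb bin under H3K9me3 peaks, by distance from the border of pericentromeric heterochromatin (dashed line, 0), for the 5 large arms and the 3 stages; negative distances lie in the arm. The highest bin of each arm is the same at the 3 stages and is highest at stage 6, up to 61.7% at the centromere end of 3R; in some arm bins of low coverage stage 4 is above stage 6.

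Within the arms, X had the most peaks per Mb, with 12.1 at stage 4, 10.1 at stage 5 and 14.2 at stage 6. The arm of 3R had the fewest, with 5.77, 4.77 and 7.02. Of the arm peaks, 25.1%, 24.3% and 23.8% lay within 1 Mb of the border. Farther than that from the border, X held 182, 148 and 203 peaks. The arm of 2L, which has the same length, held 175, 147 and 201 there. Most of the lead of X over 2L thus came from peaks within 1 Mb of the border used. Summits fell in annotated genes for 50.4%, 49.8% and 50.8% of arm peaks (intervals 47.2 to 53.5%, 46.4 to 53.3% and 47.8 to 53.7%), while genes made up 73.3% of the arm span.

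Much of what was marked at stage 4 was marked at stages 5 and 6 as well. Of the stage 4 peaks, 69.6% overlapped a stage 5 peak by at least 1 base and 93.2% a stage 6 peak. Of the stage 5 peaks, 85.3% were found at stage 4 and 96.2% at stage 6. Of the longer stage 6 list, 63.2% were found at stage 4 and 53.9% at stage 5. Peaks of high fold enrichment were found again far more often than weak ones. In the highest quartile of fold enrichment of each list, between 94.6% and 99.7% of peaks were found in either of the other lists, against 27.9% to 93.1% in the lowest quartile.

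All peaks of the 3 lists were merged into 8312 regions. Of these, 3683 regions (44.3%) held a peak at all 3 stages, and they carried 5.12, 4.71 and 6.47 Mb of the covered length at stages 4, 5 and 6. Another 2460 regions (29.6%) held a peak at stage 6 only, but with a median length of 349 bp they carried 1.03 Mb. There were 1140 regions with peaks at stages 4 and 6 but not 5, 443 at stages 5 and 6, and 68 at stages 4 and 5. Regions found at stage 4 only numbered 384, and at stage 5 only 134. Regions listed at stage 4 and not at stage 6 were thus fewer than those listed at stage 6 and not at stage 4. The regions of stages 4 and 6 were listed on either side of stage 5, where the list is shortest.

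Persistence differed by compartment. Regions with a peak at all stages made up 60.6% of 1870 on unplaced scaffolds (58.4 to 62.8%), 48.8% of 613 on the Y (44.8 to 52.7%), 41.1% of 1264 in arms (38.4 to 43.8%) and 37.7% of 4504 in pericentromeric regions (36.3 to 39.1%). Regions of stage 6 alone ran the other way, from 21.3% on scaffolds (19.5 to 23.2%) to 34.8% in pericentromeric regions (33.4 to 36.2%). Regions of stage 4 alone were most frequent in arms, at 8.07% (6.69 to 9.70%), against 4.95% in pericentromeric regions (4.36 to 5.62%).

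**Figure D3:**
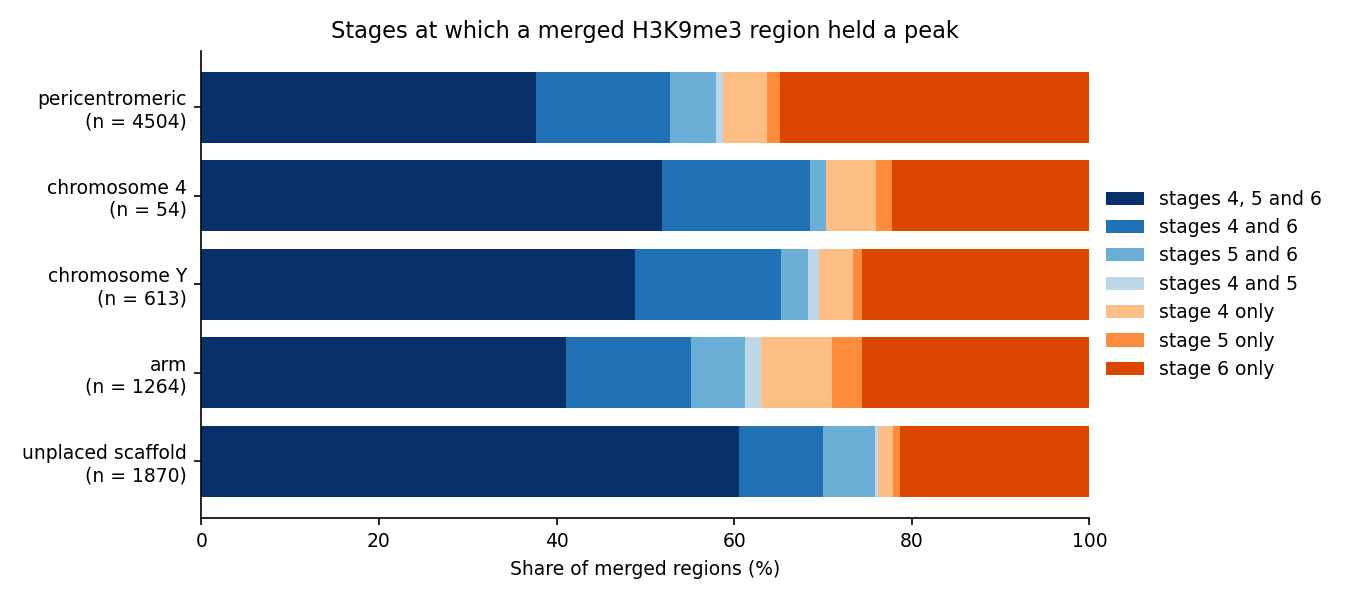
Share of merged H3K9me3 regions in percent by the stages at which they held a peak, for each compartment, with the number of regions in brackets. Regions held at all 3 stages make up 37.7% of pericentromeric and 60.6% of scaffold regions, and stage 6 alone adds 34.8% and 21.3%.

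Regions held at all 3 stages were longer at stage 6. Their median length under peaks was 776 bp at stage 4, 684 bp at stage 5 and 1089 bp at stage 6. Region by region, the ratio of stage 6 over stage 4 had a median of 1.22, and 84.4% of the 3683 regions were longer at stage 6. The median ratio of stage 5 over stage 4 was 0.957, with 37.6% of regions longer at stage 5. The gain from stage 4 to stage 6 was largest in pericentromeric regions, with a median ratio of 1.32, followed by chromosome 4 with 1.20, arms with 1.19, the Y with 1.15 and scaffolds with 1.11. The order of regions was largely kept. Across these regions, Spearman's rho between stages 4 and 6 was 0.775 for fold enrichment and 0.865 for length; regions share a library and its depth and are not replicates.

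**Figure D4:**
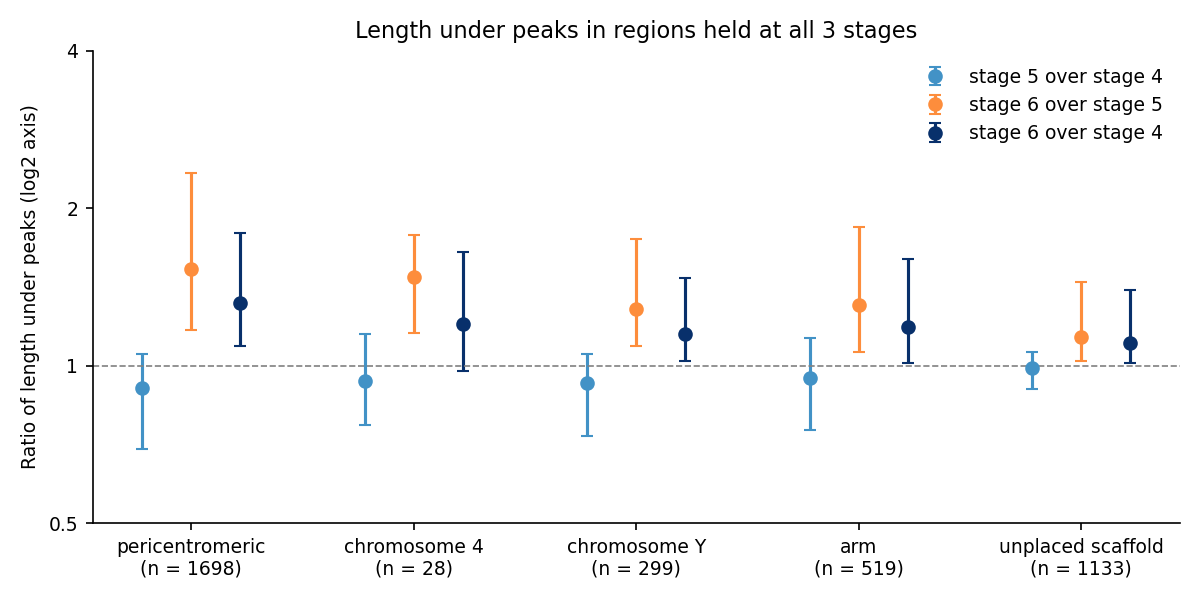
Ratio of the length under H3K9me3 peaks between stages (log2 axis) in regions held at all 3 stages, by compartment; points are medians over regions and bars run from the lower to the upper quartile. Stage 6 over stage 4 is highest in pericentromeric regions (1.32) and lowest on scaffolds (1.11), and stage 5 over stage 4 lies below 1 in each compartment shown.

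Long domains were most numerous at stage 6 and fewest at stage 5. Peaks joined over gaps of up to 1 kb formed 3893 domains at stage 4, 3405 at stage 5 and 4297 at stage 6. Domains of 10 kb or more numbered 60, 51 and 135 and spanned 0.999, 0.851 and 2.31 Mb. Most were pericentromeric, with 46, 37 and 113. The longest domain of stages 4 and 6 lay in 3L heterochromatin, at chr3L:26084086-26129248 at stage 4 (45163 bp from 20 peaks) and at chr3L:26084087-26132988 at stage 6 (48902 bp from 10 peaks). Of the stage 4 domain, 86.4%, 78.4% and 95.0% lay under peaks at stages 4, 5 and 6. A domain at the centromere end of 3R, chr3R:87-44411 at stage 4, was 90.0%, 90.5% and 92.6% covered. The longest domain of stage 5, chr3R:268775-309923, was 91.0%, 92.7% and 94.4% covered. The other domains among the 3 longest of a list were chrX:23399934-23438818, covered to 93.1%, 94.8% and 95.5%, chr3R:50312-88158, to 92.0%, 92.5% and 93.3%, and chr3R:209928-253092, to 74.8%, 68.6% and 90.0%. No annotated gene lies in these domains. Their share under peaks at the stage that defined them follows from how they were joined; at the other stages it ranged from 68.6% to 95.5%.

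Regions listed at stage 6 alone lay close to peaks of earlier stages in heterochromatin. They had a median distance of 1055 bp to the nearest peak of stage 4 or 5, without the 178 that had none on their sequence. Of all 2460 regions of stage 6 alone, 45.2% lay within 1 kb of such a peak. In pericentromeric regions 89.3% of 1568 such regions lay within 5 kb. In arms 58.0% of 324 did, and 72.8% lay within 50 kb. Of 519 arm regions of all 3 stages, 66.3% lay within 5 kb of the next such region and 76.1% within 50 kb. Distances in pericentromeric heterochromatin were short in general: regions of all 3 stages had a median distance of 919 bp to the next such region there, against 1054 bp from a region of stage 6 alone to the nearest peak of stage 4 or 5.

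H3K9me3 libraries of other genotypes showed how far these patterns are found elsewhere. Of the regions held at all 3 stages, 92.0% and 91.5% overlapped a peak in the 2 libraries of w knockdown embryos at stage 5, and 85.0% and 84.9% in those of SetDB1 WT embryos. For regions of stage 6 alone the shares were 37.0% and 34.7% in w knockdown embryos and 47.9% and 51.1% in SetDB1 WT embryos. For regions of stage 4 alone they were 32.8% and 33.9%, and 37.5% and 34.4%. Regions listed at stages 4 and 6 but not 5 were present in 63.5% and 63.3% of cases in the w knockdown libraries, which are themselves of stage 5. Over all 8312 regions the shares were close to these, at 66.8% and 66.0%. In SetDB1 WT embryos they were 67.8% and 68.0% over all regions. These lists came from broad calls against input and held 3469 to 4138 peaks each. Peaks in all 4 of these libraries were found for 75.4% of regions held at all stages, for 15.0% of those of stage 6 alone and for 11.7% of those of stage 4 alone. Over all regions this share was 45.9%.

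The strongest peaks on assembled chromosomes lay on the Y, X and 3R at stages 4 and 5 and on the Y, X and 3L at stage 6. The highest at stage 4 lay at chrX:23272450-23274698, 1291 bp from a pseudogene of 28S ribosomal RNA, and the fold enrichment there was 20.4, 15.3 and 12.3 at stages 4, 5 and 6. A peak inside kl-3, a Y gene for a dynein heavy chain of the sperm tail, at chrY:425835-427121 had 19.4, 13.6 and 14.2 and was the highest of stage 6. Another in the same gene at chrY:550796-554009 had 19.7, 15.2 and 9.76. Folds of different lists rest on different depths, and the ranks within each list, scaffolds included, also moved: the kl-3 peak named last stood at rank 11 at stage 4, 16 at stage 5 and 150 at stage 6.

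Some peaks that led stage 6 stood lower in the earlier lists. They were picked by their fold at stage 6, and lower ranks in the other lists can follow from that choice alone. The peak at chrX:22063260-22067338, 75719 bp from the nearest annotated gene, had rank 263 at stage 4, 89 at stage 5 and 7 at stage 6, with folds of 12.2, 12.4 and 13.9. A peak in lovit, a gene for a transporter of synaptic vesicles, at chr3L:25286486-25291628 had folds of 10.2, 5.76 and 13.3 and ranks 453, 1058 and 12. Of the peaks in Ppr-Y, a long Y gene, that at chrY:1842816-1843680 had ranks 251, 102 and 9 and that at chrY:1856181-1857894 had ranks 271, 582 and 12.

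Peaks on 3R that led stage 4 or 5 stood lower at stage 6. They were picked by fold at those earlier stages, from which lower ranks at stage 6 can follow as well. Inside Myo81F, a myosin gene of 3R heterochromatin, the peak at chr3R:1749688-1754981 had folds of 18.4, 12.004 and 8.62 and ranks 23, 109 and 284. At the centromere end of 3R, the peak at chr3R:79507-86649 had folds of 18.3, 12.2 and 9.51 and ranks 24, 97 and 170. The peak at chr3R:50312-52581 had folds of 18.2, 16.4 and 9.97 and ranks 27, 6 and 124. The remaining leader, at chrY:554831-555476 in kl-3, had folds of 17.1, 15.96 and 11.2 and ranks 42, 10 and 52.

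Strong islands also lay inside genes of the arms. The peak in gpp, which codes for a histone methyltransferase of the Dot1 family, at chr3R:6417332-6419001 at stage 4, had folds of 16.6, 15.7 and 11.8 and ranks 51, 12 and 39. The peak in mtd at chr3R:5338528-5343322 had 17.3, 13.6 and 10.9. In Trim9, a ubiquitin ligase of axon guidance, the peak at chr2L:10593082-10594198 had 18.3, 9.45 and 10.7. The peak in bru3, which codes for an RNA-binding protein of the Bruno family, at chr3L:13574723-13580088 had 12.3, 13.3 and 7.79. One in Lar, a receptor phosphatase of axon guidance, and in the overlapping gene CG46244, at chr2L:19657785-19659026, had 10.4, 8.97 and 10.8. All 5 were listed at each stage, each also with an H3K9me2 peak at each stage. All 5 overlapped a peak in all 4 libraries of the other genotypes, with folds there between 2.68 and 10.3. Of all arm peaks, 86.0%, 85.8% and 80.1% overlapped an H3K9me2 peak at stages 4, 5 and 6. Between 67.9% and 92.3% overlapped a peak in each of the 4 libraries. The 5 were picked by fold, and peaks of high fold were found again more often at other stages in general.

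Some genes that sit in pericentromeric heterochromatin had H3K9me3 peaks inside their bodies at stage 4, and most had none at any stage. Within the borders, 72 of 352 genes overlapped a peak at all 3 stages and 239 at none. Of 22 such genes on the list used, 13 overlapped a peak at stage 4, 12 at stage 5 and 13 at stage 6. Of all 17807 annotated genes, 2.3%, 1.95% and 2.7% did, and of all genes within the borders 24.7%, 23.3% and 29.3%. The share differed with gene length. Of genes of 10 kb or more within the borders, 55.7%, 55.7% and 62.5% overlapped a peak, against 14.4%, 12.5% and 18.2% of shorter ones. Of the listed genes, 16 are that long, and 12, 11 and 12 of them overlapped a peak.

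Coverage of the listed genes with peaks ranged widely. Myo81F, with 1965857 bp the longest of the list, was 17.4% covered at stage 4, 12.8% at stage 5 and 31.8% at stage 6. Dbp80, a gene for an RNA helicase, had 12.8%, 11.2% and 34.7%. Snap25, a protein of synaptic vesicle fusion, had 18.6%, 12.4% and 27.5%. Each of these was lowest at stage 5 and highest at stage 6, as were l(2)41Ab with 25.4%, 22.9% and 39.6%, and Parp1, the polymerase of poly(ADP-ribose), with 16.2%, 8.98% and 22.6%. The MAP kinase gene rl had 12.2%, 8.31% and 16.5%. In nvd, whose product makes a precursor of ecdysone, the values were 13.6%, 8.04% and 18.1%, and in the histone kinase gene Haspin 19.2%, 13.8% and 24.6%.

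Less covered genes of the list behaved less uniformly, apart from RpL5 and lt, which were also lowest at stage 5 and highest at stage 6. RpL5, a ribosomal protein gene of 4606 bp, had 1 peak at each stage and 10.5%, 8.03% and 16.3% of its length covered. The gene lt, which acts in transport to lysosomes and is the classic example of a gene in heterochromatin, had 4.79%, 3.06% and 5.48%. The values of uex, a gene for a magnesium transporter, were 5.96%, 7.20% and 10.4%. Peaks were listed at stages 4 and 6 but not 5 in scro, a homeobox gene (4.79% and 11.4%), and in Nipped-A (1.32% and 1.41%), and at stage 5 alone in Nipped-B, the loader of cohesin (1.54%). No peak was listed at any stage in cta, vtd, Set1, RpL15, RpL38, Alg-2, Gpb5 or CG40498.

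**Figure D5:**
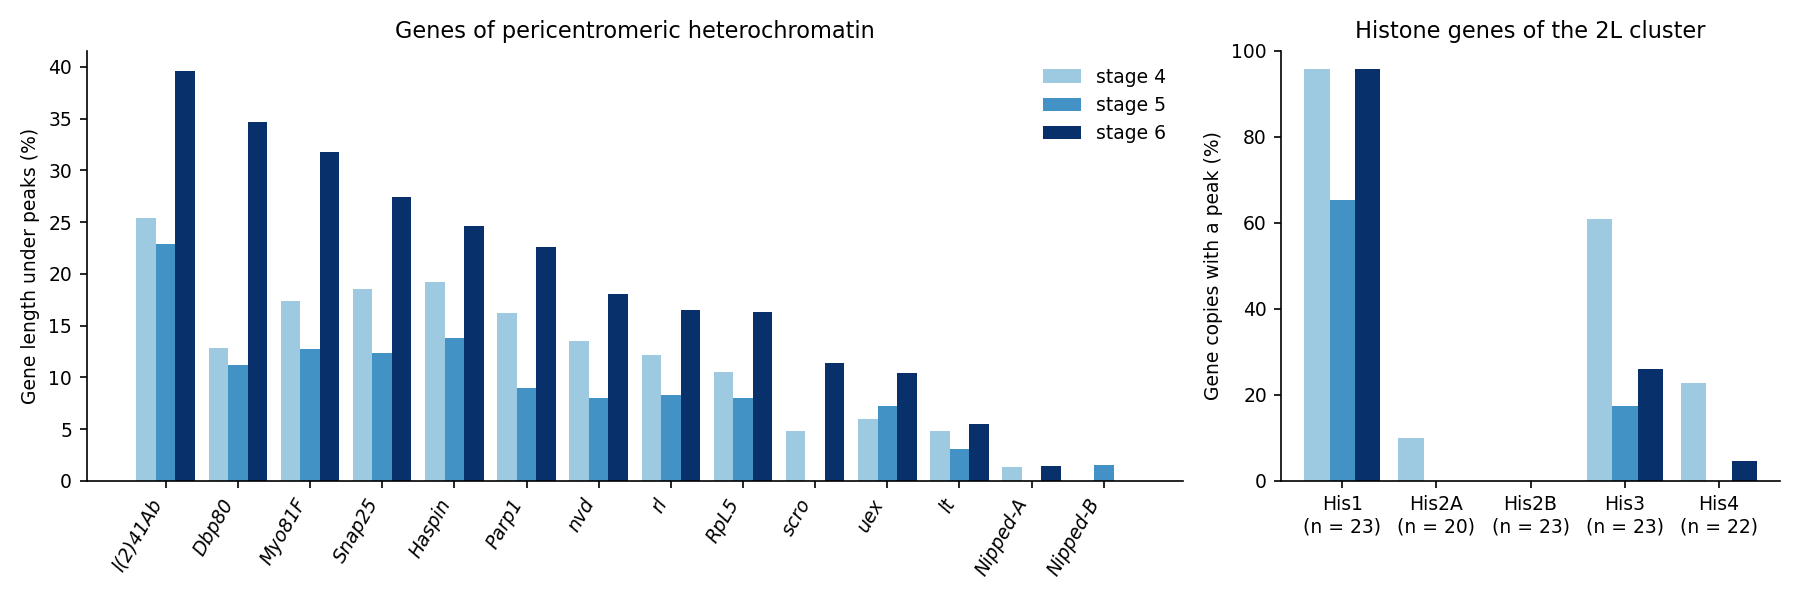
Left, share of the gene length under H3K9me3 peaks at stages 4, 5 and 6 for the 14 listed pericentromeric genes with a peak at any stage. Right, share of copies with a peak for each histone gene type of the 2L cluster. Most pericentromeric genes are highest at stage 6 (l(2)41Ab 39.6%), while His1 stands at 95.7%, 65.2% and 95.7% of 23 copies and His2B at 0 at each stage.

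Genes of chromosome 4 were mostly free of listed peaks. Of 20 listed genes, 1, 1 and 3 overlapped a peak at stages 4, 5 and 6, beside 7.02%, 4.39% and 8.77% of the 114 genes on the chromosome. These were unc-13, which primes synaptic vesicles, at stages 4 and 6 (0.708% and 2.91% covered), Cadps, which acts on dense-core vesicles, at stages 5 and 6 (0.640% and 0.687%), and Tdg, a DNA glycosylase gene, at stage 6 (1.71%). The mark sat at the end of the assembled sequence instead. Chromosome 4 held 51, 41 and 54 peaks, of which 37, 31 and 34 lay beyond position 1200000, where 3 genes are annotated. The highest fold on the chromosome, 16.3 at stage 4, 11.8 at stage 5 and 8.19 at stage 6, lay in the stretch chr4:500001-600000. On the Y, 33.3%, 25.2% and 47.2% of 123 genes overlapped a peak.

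Few genes on the list of early zygotic genes, which includes bcd, had a peak. Of the 26 genes listed, 2 (7.69%) overlapped a peak at stage 4, 3 (11.5%) at stage 5 and 1 (3.85%) at stage 6. These shares were above the background of 1.59%, 1.33% and 1.79% of all genes in arms. The Wilson intervals of these small counts ran from 2.14 to 24.1%, from 4.00 to 29.0% and from 0.682 to 18.9%. The interval of stage 6, where only twi overlapped a peak, includes the 1.79% of all arm genes. Gene length was not taken into account in this comparison. The gene twi, a regulator of the mesoderm, is annotated over 62952 bp. It was marked at each stage over 1.33%, 0.791% and 0.996% of that length, with folds of 6.08, 3.99 and 4.72. The pair-rule gene eve had a peak at stages 4 and 5 (folds 3.80 and 3.72) and the terminal gap gene hkb at stage 5 (3.15). None of the 19 genes on the list of heterochromatin proteins overlapped a peak at any stage (interval 0 to 16.8%). Among them were the methyltransferase genes egg (SetDB1) and G9a, the HP1-family gene rhi, piwi and Gcn5. All 19 lie in arms, and their interval includes the shares of all arm genes given above, so that they cannot be told apart from these.

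Histone genes formed an unusual group. The cluster on 2L, chr2L:21416953-21541681, holds 111 histone genes of 5 types in repeated units, and 43 of them overlapped a peak at stage 4, 19 at stage 5 and 29 at stage 6. Linker histone genes took most of these, with 22, 15 and 22 of 23 His1 copies. His3 had 14, 4 and 6 of 23, His4 had 5, 0 and 1 of 22, His2A had 2, 0 and 0 of 20, and His2B had none of 23 at any stage. His3, His4 and His2A thus had most marked copies at stage 4, while coverage of pericentromeric regions was highest at stage 6. Of the 111 histone genes, 38.7%, 17.1% and 26.1% overlapped a peak, beside 1.59%, 1.33% and 1.79% of all genes in arms.

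The signal over histone genes was weak. Over His1 the median fold was 3.18, 2.54 and 2.46 at stages 4, 5 and 6, below the medians of the whole lists. The local background there was high, with medians of 15.3, 27.9 and 37.2 against lowest values of 2.95, 3.76 and 6.00. The copies are nearly identical, so that reads could be split or moved between them, and their counts are uncertain. H3K9me2 also covered His1, in 22, 23 and 21 copies, and had peaks on the other types as well: on His3 in 20, 18 and 16 copies, on His2A in 16, 8 and 3, on His4 in 10, 4 and 5 and on His2B in 7, 1 and 2. H3K14ac peaks were listed on this cluster too, on no copy of any type at stage 4 and on many at stages 5 and 6. They lay on 17 and 11 copies of His2A, 15 and 15 of His4, 12 and 9 of His3, 1 and 2 of His1 and none of His2B. In the other genotypes, 16 and 22 His1 copies had an H3K9me3 peak in w knockdown embryos and 5 and 4 in SetDB1 WT embryos.

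H3K9me3 and H3K9me2 lay together at each stage. Of H3K9me3 peaks, 92.3% overlapped an H3K9me2 peak at stage 4 (91.6 to 92.9%), 92.4% at stage 5 (91.7 to 93.1%) and 90.2% at stage 6 (89.5 to 90.8%). In reverse, 58.8%, 56.9% and 71.9% of H3K9me2 peaks overlapped an H3K9me3 peak. The lists share an input label and differ in length and depth, with a lowest background of 2.95, 3.76 and 6.00 for H3K9me3 and 7.26, 9.77 and 10.9 for H3K9me2, so that the part of depth in the rise of the reverse share was not tested. H3K9me3 peaks without H3K9me2 numbered 520, 434 and 781. They were narrower than those with H3K9me2, with medians of 287, 291 and 325 bp against 503, 515 and 644 bp. They were weaker as well, with median folds of 3.80, 3.57 and 3.14 against 4.48, 4.05 and 3.72, and 26.5%, 26.3% and 28.9% of them lay in arms against 13.6%, 13.04% and 12.7%.

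Few H3K9me3 peaks met H3K14ac, acetylation of lysine 14 on the same histone. Of H3K9me3 peaks, 3.10%, 3.04% and 4.33% overlapped an H3K14ac peak of the same stage. With a −log10 q of 5 or more in both lists, the shares were 0.172%, 0.263% and 0.831%. The median −log10 q was 1.605, 1.90 and 2.44 in the H3K14ac lists, against 7.80, 8.06 and 9.24 for H3K9me3. That cutoff thus drops most H3K14ac peaks, and lower shares can follow from it alone. In arms the share was 8.85% at stage 4 (7.23 to 10.8%), 6.35% at stage 5 (4.86 to 8.26%) and 15.7% at stage 6 (13.7 to 17.9%). In pericentromeric regions it was 2.79%, 3.16% and 3.17%. In reverse, 5.103%, 1.62% and 2.53% of H3K14ac peaks overlapped H3K9me3. Of the few H3K14ac peaks in pericentromeric regions (187, 351 and 453), 43.9%, 24.8% and 23.2% did. The H3K14ac lists have the columns of broad calls, covered 2.91, 10.2 and 25.5 Mb at stages 4, 5 and 6, and the peak names of the list labelled stage 4 carry the tag stage3_4. A longer list meets more peaks by its length, and its part in the higher share at stage 6 was not tested.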

How the data were processed

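H3K9me3 peak lists of w1118 embryos at stages 4, 5 and 6 were analysed as deposited, 1 library per stage. Trim Galore 0.6.0, Bowtie2 2.3.5.1, MACS2 2.2.6 and deepTools are named per the submitters' processing notes, with the builds dm6 and BDGP6. The H3K9me3 and H3K9me2 lists have no header; their columns hold, as deposited by the authors, the pileup signal (coverage at the summit), −log10 p-value, fold enrichment and −log10 q-value of each peak. Their control, threshold and depth are not given in the sources used here; the lowest −log10 q listed was 2.03, 2.05 and 2.03. The lists of other genotypes were broad calls against input, per the file headers.

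Background was computed as (pileup + 1) / fold − 1; Poisson p-values from pileup and that background matched the deposited ones within 0.05 for 100.0% of peaks. Overlap meant at least 1 base. Genes came from RefSeq on the same build (Release 6), with no transposon annotation and no genome; transposon families and sequences were not analysed here. Intervals are Wilson 95% (shares) or binomial on ranks (medians). Overlap, distance and merging of peaks were tested on simulated data. Python 3.11.15, numpy 2.4.6, pandas 2.3.3, scipy 1.17.1 and matplotlib 3.10.9 were used. No test was possible with 1 library per stage. Peaks were named by rank (in each list the 5 highest folds on assembled chromosomes, the 3 highest in arms, and the 3 longest domains), genes by lists; members and lists were chosen with earlier results of these data known. Alternatives covered the threshold, overlap, borders, list length, scaffolds and depth.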

Additional observations from a re-analysis of the deposited data

Results flagged for a closer look

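Peak number moved in opposite directions between marks from stage 4 to stage 5. The H3K9me3 list had 1027 peaks fewer at stage 5 than at stage 4 (a change of -1027), while the H3K14ac list had 6507 more (9603 at stage 5 and 3096 at stage 4). The H3K9me2 list changed by -504. From stage 5 to stage 6 all 3 marks had more peaks, by 2252 for H3K9me3, 1072 for H3K9me2 and 958 for H3K14ac. The difference between marks was not tested, since each list comes from 1 library, and the lists are of different kinds, narrow for H3K9me3 and H3K9me2 and broad for H3K14ac.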

How the results depend on the processing

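Each value of the 3 lists was recomputed with other settings, 102 alternatives in all, of which 45 stayed within the interval or within 1.5 times the count and 57 did not. In the alternatives run for them, stage 5 kept the fewest peaks and stage 6 the longest coverage. Scaling to the lowest background could only drop peaks of stages 5 and 6, so stage 5 stayed below stage 4 by construction. Stage 6 had more peaks than stage 4 except with a fold of at least 3, which left 6288, 4985 and 6087. Values are given for stages 4, 5 and 6.

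Joining peaks over 1 kb gave 3893, 3405 and 4297 domains. Where only peaks with a −log10 q of 5 or more were kept, the median width was 575, 577 and 717.5 bp and the median fold 4.81, 4.40 and 4.00. With the same number of peaks per stage (5716, taken by −log10 q), widths were 535, 485 and 796 bp and folds 4.68, 3.99 and 4.15. Stage 5 was then below stage 4 in width and below stage 6 in fold, unlike in the full lists. This setting kept the whole stage 5 list and dropped peaks of stages 4 and 6 only. The heterochromatin share was 85.9%, 85.8% and 85.8% with borders 1 Mb nearer the telomere and 66.3%, 66.8% and 66.6% with borders 1 Mb nearer the centromere.

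Shares found at another stage are given as 4 in 5, 4 in 6, 5 in 4, 5 in 6, 6 in 4 and 6 in 5. Requiring 50% of the peak gave 60.7%, 89.9%, 78.3%, 94.2%, 49.4% and 39.8%. Equal list lengths gave 76.1%, 88.5%, 80.0%, 90.3%, 71.3% and 68.9%. Assembled chromosomes alone gave 65.4%, 91.9%, 84.0%, 95.5%, 60.4% and 49.4%. The stricter q moved 4 in 5, 5 in 4 and 5 in 6 to 70.7%, 84.2% and 95.7%. Scaling to the lowest background, added after seeing the data, moved 6 in 4 and 6 in 5 to 70.5% and 61.3%.

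Shares with H3K9me2 were 89.5%, 89.0% and 87.0% at 50% overlap, 91.2% at stage 6 with the stricter q, and 91.5% and 90.9% at stages 4 and 5 on assembled chromosomes (added after seeing the data). Shares with H3K14ac were 1.96%, 2.01% and 2.81% at 50% overlap, 0.172%, 0.263% and 0.831% with the stricter q in both lists, and 3.79%, 3.74% and 5.53% on assembled chromosomes. The cause of these moves was not tested, apart from the fewer peaks each stricter setting keeps.

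No paired analysis was possible because each stage has 1 library and no test was made. Depth limits the comparison of stages, as does the single library of each: the lowest background differed 2.03 times between stages 4 and 6, and width, covered length and weak peaks move with it. Repeats limit it as well, since the treatment of reads with several places is not given in the sources used here.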

Other observations

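Outside the borders, the gene with the most bases under H3K9me3 peaks at each stage was flam (lncRNA:flam, chrX:21631891-21790731), the piRNA cluster that silences retrotransposons in somatic cells of the ovary. It held 37, 23 and 49 peaks at stages 4, 5 and 6 and had 11.1%, 7.84% and 23.2% of its length covered. It was chosen after its values were seen. It lies in the last bin of 0.5 Mb before the X border used. Trim9, Lar and jim, further genes of long coverage in arms, had 8.12%, 4.65% and 13.4% covered at stage 4.

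The ends of the arms were marked except on 3R. In the outermost 50 kb, 2L had 5005, 5163 and 5297 bp under peaks at stages 4, 5 and 6, 2R had 10604, 9291 and 13575 bp, 3L had 8495, 9184 and 14696 bp, and X had 6210, 3362 and 7057 bp. The same window of 3R held no peak at any stage, and the last peak listed on 3R ended at 31999065, 31999345 and 31999376. The value of 2L hardly moved between stages, while covered length in arms as a whole was 1.45 times as high at stage 6 as at stage 4.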
